A study of Arabidopsis thaliana with 58 samples.

Results

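The genes described here code for the core and linker histones of Arabidopsis thaliana, chosen by their gene identifiers from the H2A, H2B, H3.1, H3.3, H4 and H1 families. They are 39 of the 33331 nuclear genes in the count table. By type they comprise 4 canonical H2A genes, 2 of H2A.X, 3 of H2A.W, 3 of H2A.Z, 8 of H2B, 5 of H3.1, 3 of H3.3, 8 of H4 and 3 of the linker histone H1. The members lie on all 5 chromosomes, with 9, 6, 9, 3 and 12 members on chromosomes 1 to 5. None was chosen by a measured value.

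All samples were whole seedlings, 9 days old, kept in continuous white light. ChIP-seq of H3K4me1, H3K4me2 and H3K4me3 (histone H3 with 1, 2 or 3 methyl groups on lysine 4) compared the Col-0 wild type (WT) with the pkl mutant, which lacks normal function of PICKLE (PKL), a chromatin remodeler of the CHD3 family. ChIP-seq with an antibody against the endogenous PKL protein compared WT with the jaw-5D, pifQ and hy5 mutants. RNA-seq was used from pkl alone, and no WT library was analysed for expression, so FPKM are levels in pkl and no change of expression is given. Each group had 3 libraries. The labels name the genotypes without allele details for pkl, pifQ and hy5 and give no count of plants per library. The protocol text speaks of biological replicates for RNA-seq. For ChIP it does not say whether the 3 libraries came from separate plantings, so p-values measure the spread between these libraries, which may be technical.

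As background, an octamer of H2A, H2B, H3 and H4 wraps the DNA of each nucleosome, and H1 binds the linker DNA where it enters and leaves. H3.1 and the canonical H2A and H2B are made mainly for new chromatin in S phase, while H3.3 is placed throughout the cell cycle at transcribed genes and H2A.Z is exchanged in by the SWR1 complex. H2A.W sits in plant heterochromatin and H2A.X is phosphorylated at DNA breaks. H3K4me3 and H3K4me2 mark the starts of transcribed plant genes and H3K4me1 their bodies. jaw-5D belongs to the jaw-D type of plants, known for high levels of a microRNA that targets TCP transcription factors. pifQ lacks several PIF factors, which act in darkness and shade, and hy5 lacks a bZIP factor of the light response.

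The unit for the ChIP data was the length, in bp, of a gene that lay under called peaks, so that it states how much of a gene was called and not how strong the signal was. The 18 histone mark libraries held 14395 to 21880 peaks. The PKL lists of the mutants held 11379 to 13979 peaks, and those of WT held 821, 632 and 2824 peaks. The WT lists end at a q value of 0.01 and the mutant lists at 0.05. With every list limited to a -log10 q of at least 2, which is the WT limit, the genes called longer than in WT numbered 3927 for jaw-5D, 3694 for pifQ and 3630 for hy5, compared with 4151, 3906 and 3868 for the lists as deposited. The WT lists also name chromosomes in another way, and any other difference in how they were made cannot be told apart from the genotype. The RNA libraries held 17300314 to 17656899 counts. Leaf transcripts stood far above root and seed ones in them, with a mean of 24411 FPKM for RBCS1A, 84.6 for the root transporter gene PHT1;1 and 0 for the seed storage gene CRU3.

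Histone genes were among the strongly expressed genes of pkl seedlings. Their median was 92.7 FPKM, against 3.55 for all nuclear genes, and 29 of the 39 lay above the 90th percentile of nuclear genes, 50.2 FPKM. Every member was expressed, with 92 to 5229 counts per library. In whole seedlings, fewer cells that make a transcript and less of it per cell cannot be told apart. Genes of near-identical sequence, as within the H3.1, H3.3 and H4 families, may also have shared reads, and how such reads were counted is not given in the sources used here.

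**Figure D1:**
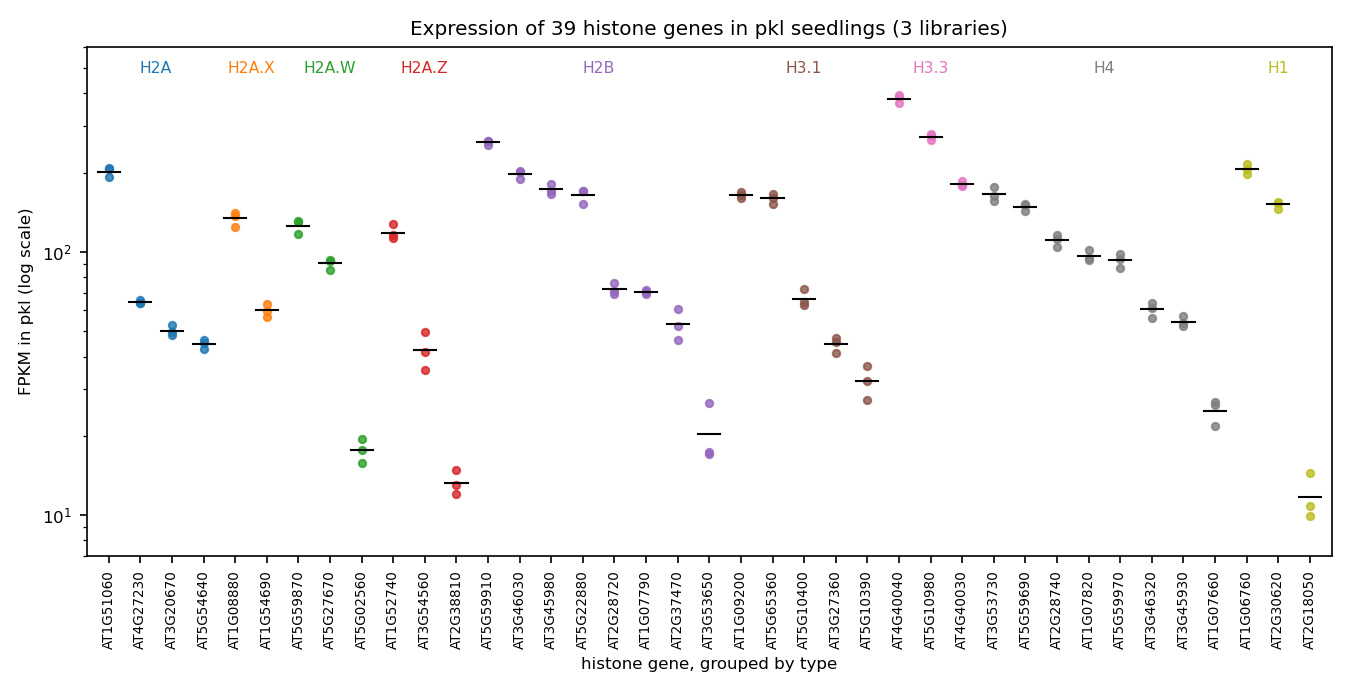
Expression of each histone gene in pkl seedlings, grouped by histone type. Points are FPKM in the 3 libraries on a log axis and black bars their means; the 3 H3.3 genes lie between 178 and 393 FPKM, while H1, H2B and H2A.Z each span about an order of magnitude.

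H3.3, the replication-independent H3, had the highest median of all types, 273 FPKM, against 42.3 to 152 FPKM for the others. AT4G40040 (chromosome 4, 18557187 to 18558743, minus strand, TAIR10) reached 368, 386 and 393 FPKM, the highest of all members, and ranked 324 among nuclear genes. AT5G10980 had a mean of 273 ± 7.53 FPKM (SD, n = 3). AT4G40030, which lies 214 bp downstream of AT4G40040 on the same strand, was the lowest of the H3.3 genes at 179, 186 and 178 FPKM. The H3.3 genes supplied 64.2% ± 0.203 of all H3 FPKM (SD, n = 3), and the 5 H3.1 genes supplied the rest.

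Among the H3.1 genes, which carry no intron, AT1G09200 was highest with 160, 164 and 168 FPKM and AT5G10390 lowest with 32.3, 27.4 and 37.0 FPKM. AT5G65360 stood beside AT1G09200 at 160 ± 6.88 FPKM, and their ranges overlapped. The remaining AT5G10400 and AT3G27360 had means of 66.4 and 44.5 FPKM. Summed H3 (H3.1 with H3.3) was 1.73 ± 0.0156 times summed H4 (SD, n = 3).

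H4, whose genes code for the partner of H3, was spread over 8 genes with a median of 94.6 FPKM. AT3G53730 was highest at 163, 156 and 176 FPKM and held 21.9% of the H4 total. AT1G07660 was lowest at 21.7, 26.1 and 26.9 FPKM. The other H4 genes ran from 54.2 FPKM (AT3G45930) to 149 FPKM (AT5G59690).

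H2B held 23.0% ± 0.167 of the FPKM of all members (SD, n = 3), more than any other of the 9 types when H3.1 and H3.3 are kept apart, and less than H3 as a whole, which held 29.6% ± 0.279. HTB4 (AT5G59910) led with 255, 264 and 265 FPKM. AT3G53650 was lowest with 17.1, 17.3 and 26.6 FPKM, and the third of its libraries stood apart from the other two. HTB11 (AT3G46030), HTB9 (AT3G45980) and HTB2 (AT5G22880) had means of 198, 173 and 164 FPKM, and AT2G28720, HTB1 (AT1G07790) and AT2G37470 had 72.0, 70.2 and 52.9 FPKM.

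In each H2A class 1 gene gave 53.7 to 69.1% of the summed FPKM. HTA10 (AT1G51060) gave 55.9% of canonical H2A, with 192, 206 and 208 FPKM, and RAT5 (AT5G54640) was the lowest of that class at 42.9, 46.3 and 44.9 FPKM. H2AXA (AT1G08880), an H2A.X gene, had 140, 125 and 137 FPKM against 56.6, 63.5 and 59.5 FPKM for the other one, AT1G54690. Of the H2A.W genes, HTA6 (AT5G59870) had 117, 130 and 131 FPKM and HTA12 (AT5G02560) 19.4, 15.8 and 17.6 FPKM. Of the H2A.Z genes, HTA9 (AT1G52740) had 112, 115 and 127 FPKM and HTA8 (AT2G38810) a mean of 13.3 ± 1.38 FPKM (SD, n = 3). H2A.Z as a whole made up 17.3, 17.7 and 19.1% of the FPKM of all H2A classes.

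The linker histone genes differed most within their type, with 17.6 times between the highest and the lowest mean. AT1G06760, which codes for H1.1, had 197, 207 and 216 FPKM, and AT2G30620, which codes for H1.2, had a mean of 152 ± 4.85 FPKM. HIS1-3 (AT2G18050), known as an H1 variant induced by drought and low light, had 9.87, 14.5 and 10.8 FPKM, the lowest mean of all 39 members. Ordered by mean, 10 of the 38 neighbouring pairs of members had ranges over the 3 libraries that did not overlap. AT4G40040 stood clear of AT5G10980 in that order, AT5G10980 of HTB4 and HTB4 of AT1G06760, whereas the 7 members that follow one another from AT4G40030 (181 FPKM) to AT2G30620 (152 FPKM) each overlapped the next.

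In WT, most histone genes carried H3K4me3, many carried H3K4me2, and none carried H3K4me1 in all libraries. A gene counted as marked in a library where peaks covered at least 150 bp of it. H3K4me3 was found in all 3 WT libraries at 34 of the 39 members, against 48.2% of nuclear genes, and H3K4me2 at 27 members, against 51.3%. H3K4me1 was found in all 3 WT libraries at 0 members, against 36.2%, and only 5 members had it in any of the 6 libraries of WT and pkl. Those 5 were the H2A.Z genes HTA8, HTA9 and HTA11 (AT3G54560), the H2A.W gene HTA12 and HIS1-3, all of them with introns. Members were short, with a median length of 771 bp against 1844 bp for nuclear genes, and the part of length in these shares was not tested.

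**Figure D2:**
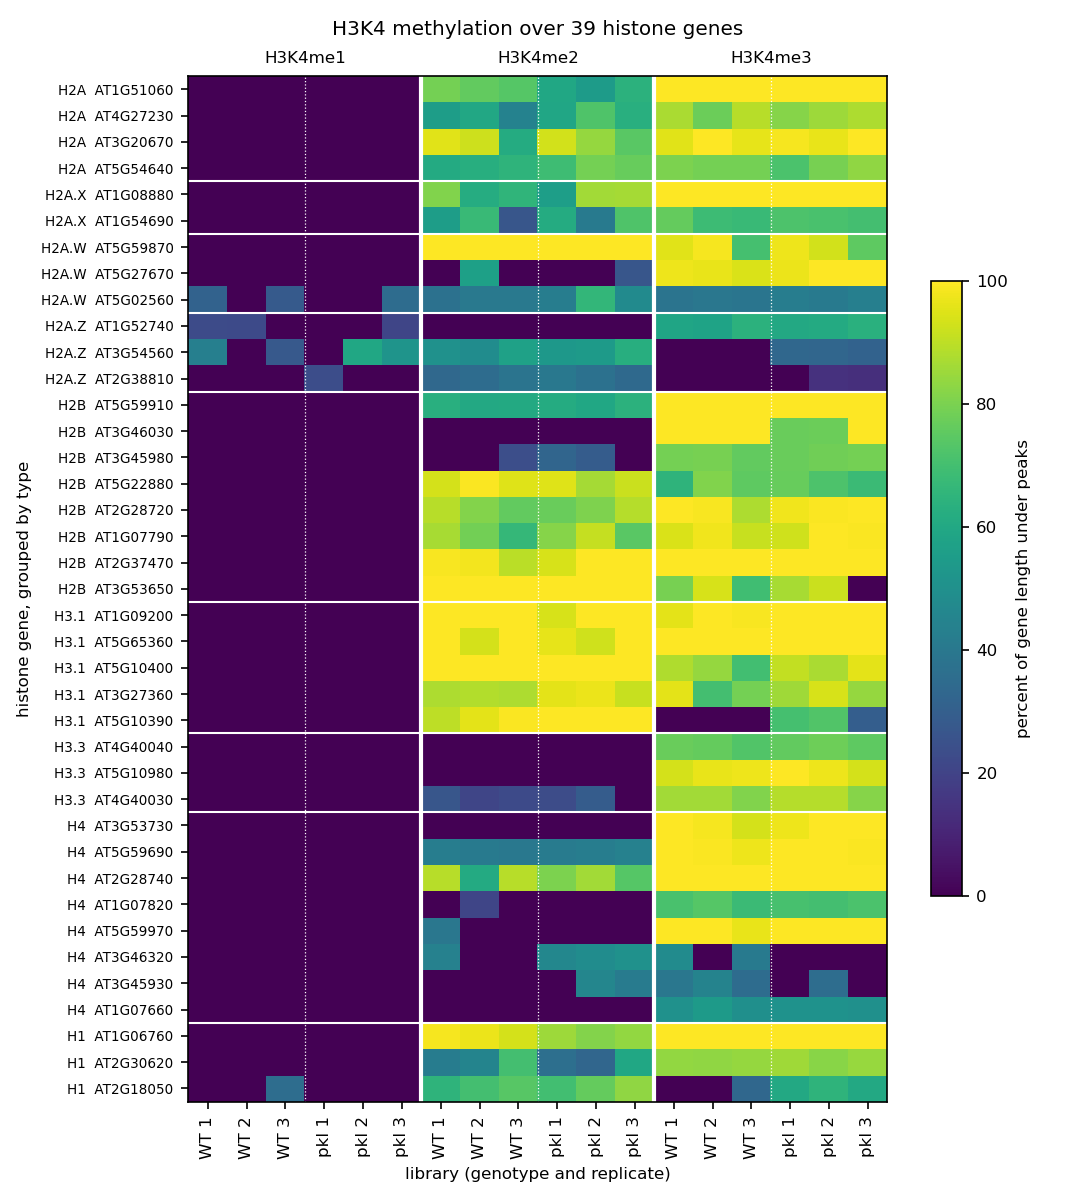
Percent of each histone gene's length under H3K4me1, H3K4me2 and H3K4me3 peaks, with genes in rows grouped by type and the 3 WT and 3 pkl libraries of each mark in columns. H3K4me3 covers most rows in both genotypes, H3K4me2 covers the H3.1 rows and is absent in both genotypes from 2 of the 3 H3.3 rows, and H3K4me1 appears in 5 rows.

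The types differed in H3K4me2. All 5 H3.1 genes carried it in all 3 WT libraries, with at least 88.1% of the gene covered and a median of 97.8%. The H3.3 genes AT4G40040 and AT5G10980 were listed at 0 bp of H3K4me2 in all 6 libraries, and AT4G40030 had 374, 294 and 312 bp in WT. Of the 8 H4 genes, 2 had it in all 3 WT libraries, AT2G28740 with 79.9% of the gene and AT5G59690 with 41.0%. The 4 canonical H2A genes, both H2A.X genes and the 3 H1 genes all carried H3K4me2 in every WT library, with up to 96.4% of the gene covered, at AT1G06760. Of the 8 H2B genes, 6 carried it in all 3 WT libraries, while HTB11 was listed at 0 bp and HTB9 had 0, 0 and 174 bp.

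H3K4me3 covered a median of 84.5% of a member's length in WT. At HTA10, H2AXA, HTB4, HTB11, AT2G37470, AT5G65360, AT2G28740 and AT1G06760 it covered the whole gene in every WT library. The fold enrichment that the authors give for each peak had a median of 6.28 over the marked members, against 5.77 over all H3K4me3 peaks of WT. It ran from 2.09 at the weakly expressed H2B gene AT3G53650 to 8.33 at HTB4. For H3K4me2 the same values were 3.11 for members and 2.86 for all peaks.

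By combination in WT, 23 members carried H3K4me2 with H3K4me3, 11 carried H3K4me3 alone, 4 carried H3K4me2 alone and 1, the H4 gene AT3G46320, carried none in all 3 libraries. Among nuclear genes, 12.6% carried H3K4me2 with H3K4me3, 7.36% H3K4me2 alone and 41.3% none in all 3 libraries. H3K4me3 alone was the state of 2.53% of nuclear genes. It was held by the H3.3 genes AT4G40040 and AT5G10980, the H4 genes AT1G07660, AT1G07820, AT3G45930, AT3G53730 and AT5G59970, the H2B genes HTB9 and HTB11, the H2A.W gene HTA7 (AT5G27670) and the H2A.Z gene HTA9. The 4 members with H3K4me2 alone were HTA8, HTA11, AT5G10390 and HIS1-3.

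Members with H3K4me3 in all 3 pkl libraries had a median of 111 FPKM (35 members), and the other 4 a median of 37.3 FPKM. For H3K4me2 the order was the other way round, with 66.4 FPKM for the 27 members that carried it and 142 FPKM for the other 12. Across the 39 members, Spearman's rho with FPKM in pkl was 0.52 for bp of H3K4me3 and -0.34 for bp of H3K4me2. As percent of the gene, rho was 0.55 for H3K4me3 and -0.27 for H3K4me2. These describe genes of different lengths from the same seedlings, and longer members also had more bp of H3K4me3 (rho 0.44 in WT).

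**Figure D3:**
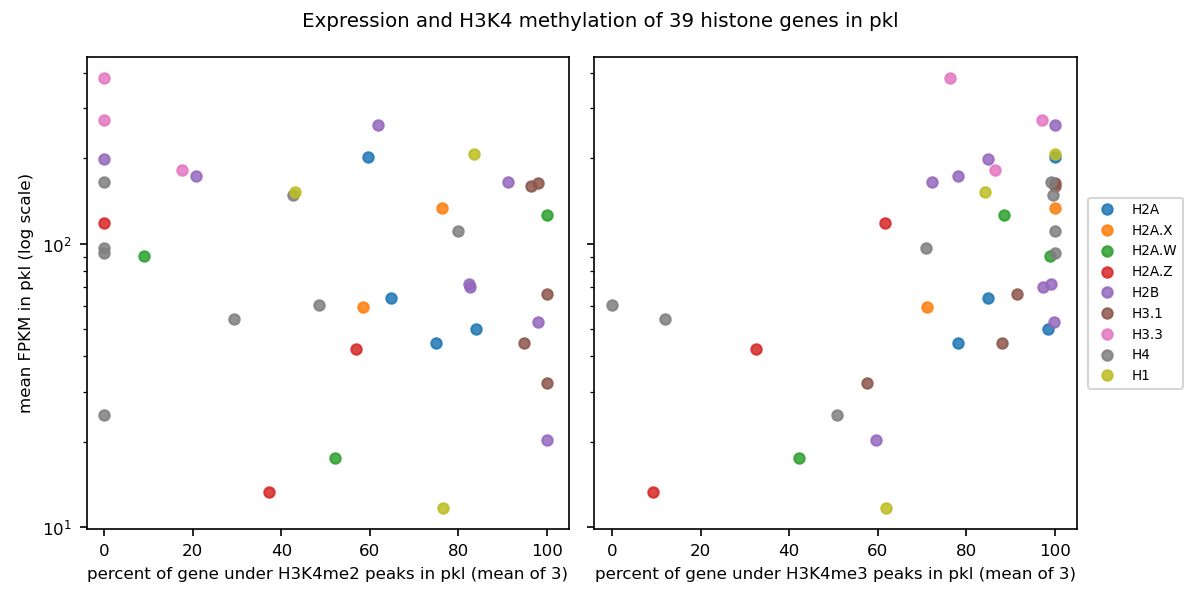
Mean FPKM in pkl (log axis) against the percent of each histone gene under H3K4me2 peaks (left) and H3K4me3 peaks (right), both means of 3 pkl libraries, 1 point per gene coloured by histone type. The H3.3 points lie high at low H3K4me2 and high H3K4me3, and the members below 20 FPKM have at most 61.8% of their length under H3K4me3.

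In pkl, H3K4me3 was called longer than in WT at 2 histone genes, the H2A.Z gene HTA11 and the H3.1 gene AT5G10390, and shorter at 0. Of the 37 members tested with limma, these 2 passed at an adjusted p of 0.05 in the longer direction, where 1.14% of all 16781 genes tested passed, and 0.387% passed in the shorter direction. At an unadjusted p under 0.05 there were 4 members, where 13.4% of genes had one. The 2 called genes had no WT peak and passed the filter of 3 marked libraries only through pkl, so the count by itself supports nothing. With every gene marked in at least 1 library tested, which took in all 39 members, the same 2 were called. The 2 genes met that filter through pkl alone as well, so this repeat adds no support. Both had a peak in all 3 pkl libraries and in 0 of the WT libraries, a pattern found at 0.333% of nuclear genes. Both lay among the 4 members that carried H3K4me2 alone in WT, and the 2 remaining genes of that group, HIS1-3 and HTA8, also had H3K4me3 peaks in pkl libraries.

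HTA11 (AT3G54560, chromosome 3, 20196266 to 20197650, plus strand) was listed at 0, 0 and 0 bp of H3K4me3 in WT and had 461, 456 and 435 bp in pkl. The pkl values lay close together and clear of WT. The mean in pkl was 451 ± 13.8 bp (SD, n = 3), with an adjusted p of 2.22e-06 from limma, and 3.24e-06 with the filter of at least 1 marked library. The peaks began 100, 29 and 81 bp after the gene start, and their fold enrichment of 2.70 to 2.92 lay below the pkl median of 6.24 over marked members. H3K4me2 at HTA11 was 702, 674 and 793 bp in WT and 738, 755 and 867 bp in pkl, so the ranges overlapped.

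AT5G10390 (chromosome 5, 3268847 to 3269550, minus strand) was listed at 0, 0 and 0 bp in WT and had 495, 512 and 209 bp in pkl. The cover in the third pkl library was shorter than in the other two. The adjusted p was 0.0289 with limma, 0.0333 with the filter of at least 1 marked library, and 0.00821 to 0.141 over the alternatives that kept all libraries. This call ended with a pseudocount of 200 bp (adjusted p = 0.0526), with a replicate block (0.141) and without any 1 WT library (0.101 to 0.132), and with marking from 300 bp the gene was not tested. Both calls ended when peaks were limited to a -log10 q of at least 10, since the 6 peaks had values of 4.41 to 9.53.

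HIS1-3 (AT2G18050, chromosome 2, 7845923 to 7846884, plus strand) had 0, 0 and 321 bp of H3K4me3 in WT and 579, 626 and 579 bp in pkl. The groups did not overlap, but the third WT library differed from the other two. The adjusted p of limma was 0.271, and it was 0.000157 without that WT library and 0.326 to 0.518 without any other 1. HTA8 was listed at 0 bp in WT and had 0, 235 and 221 bp in pkl.

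Among all 2452 nuclear genes with H3K4me2 alone in WT, 10.5% had H3K4me3 in all 3 pkl libraries and 17.6% in 2 or 3. Of the 4 histone genes of that kind, 3 had it in all 3 pkl libraries and 4 in 2 or 3. This group was singled out after its values were seen and was not tested.

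**Figure D4:**
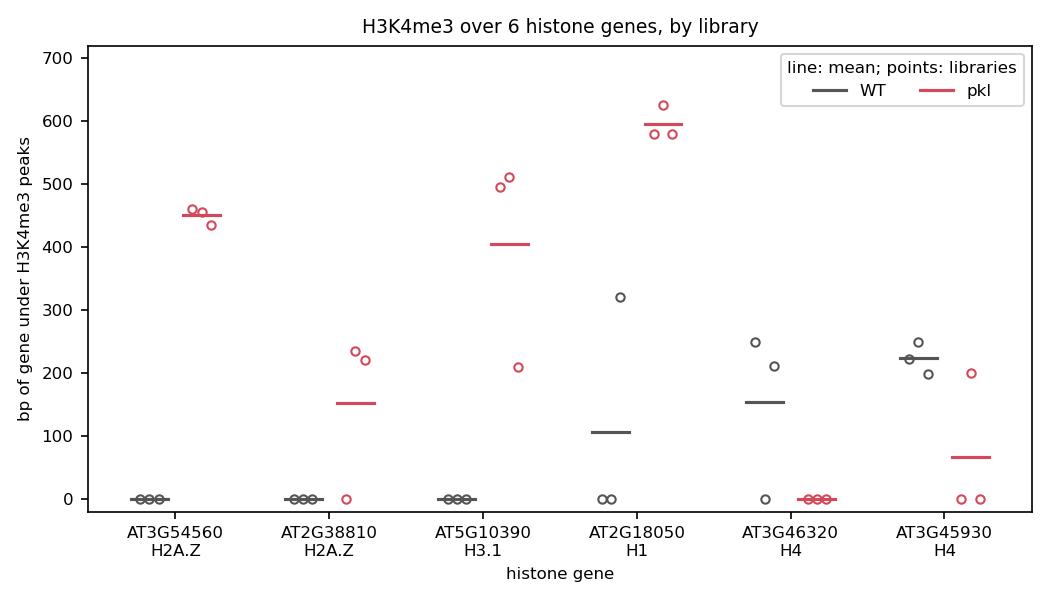
Length of 6 histone genes under H3K4me3 peaks, in bp, for each WT and pkl library (points) with the mean of 3 libraries (line). HTA11 (AT3G54560), AT5G10390 and HIS1-3 (AT2G18050) have peaks in every pkl library, while at the H4 genes AT3G46320 and AT3G45930 peaks are in 2 and 3 WT libraries and in 0 and 1 pkl libraries.

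At the H4 genes the values without a call ran the other way. AT3G46320 had 249, 0 and 212 bp of H3K4me3 in WT and was listed at 0 bp in all pkl libraries, and it was marked in too few libraries to be tested. AT3G45930 had 222, 250 and 198 bp in WT and 0, 200 and 0 bp in pkl (adjusted p = 0.378, limma). Its range in pkl overlapped that in WT, and without pkl replicate 2 it was called shorter (adjusted p = 0.00876). The other 6 H4 genes carried H3K4me3 in all 6 libraries. The H2B gene HTB11 (AT3G46030) had 684 bp in each WT library and 527, 530 and 684 bp in pkl (adjusted p = 0.415, and 0.035 without pkl replicate 3).

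H3K4me2 differed at none of the 29 members tested, with limma at an adjusted p of 0.05, where 1.58% of 19091 genes passed. An unadjusted p under 0.05 was found at 2 of the 29 members, against 14.0% of genes, and whether these shares differ was not tested. The 2 members were HTA10 (AT1G51060), with 609, 587 and 568 bp in WT and 458, 423 and 495 bp in pkl (adjusted p = 0.148), and AT1G06760, with 1180, 1159 and 1117 bp in WT and 1018, 975 and 1003 bp in pkl (adjusted p = 0.248). The groups did not overlap at either gene. They also did not overlap, with the longer cover in pkl, at RAT5, HTA12, AT3G27360, AT5G10390 and AT3G46320, none of which was called. How many of all genes had groups apart in this way was not counted. With peaks limited to a -log10 q of at least 10, 3 of 21 members had an unadjusted p under 0.05 in limma, against 844 of 10844 genes. The H4 gene AT3G46320 had 228, 0 and 0 bp in WT and 239, 251 and 262 bp in pkl (adjusted p = 0.378), and without the first WT library its adjusted p was 0.00737.

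H3K4me1 could be tested at 3 members, HTA9, HTA11 and HTA12, and limma called 0 of them, where 0.697% of 13480 genes passed. None had an unadjusted p under 0.05, against 7.5% of genes. HTA11 had 597, 0 and 389 bp in WT and 0, 825 and 717 bp in pkl. The peaks came and went among libraries of 1 genotype, and the ranges overlapped.

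PKL peaks were sought in each gene and the 1000 bp upstream, where at least 50 bp counted as bound. In WT, 0 members were bound in all 3 libraries, against 0.792% of nuclear genes. A peak in 1 WT library, replicate 3 in each case, was found at 4 members, namely AT4G40040 with 509 bp, AT5G10980 with 265 bp, RAT5 with 223 bp and AT3G46320 with 128 bp. In the mutants, 12 members were bound in all 3 jaw-5D libraries, 15 in pifQ and 14 in hy5, against 23.1%, 23.4% and 20.5% of nuclear genes. Bound in all 9 mutant libraries were 7 members (17.9%), against 16.7% of nuclear genes, and 5 were bound in none, whereas 53.1% of nuclear genes were bound in none.

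**Figure D5:**
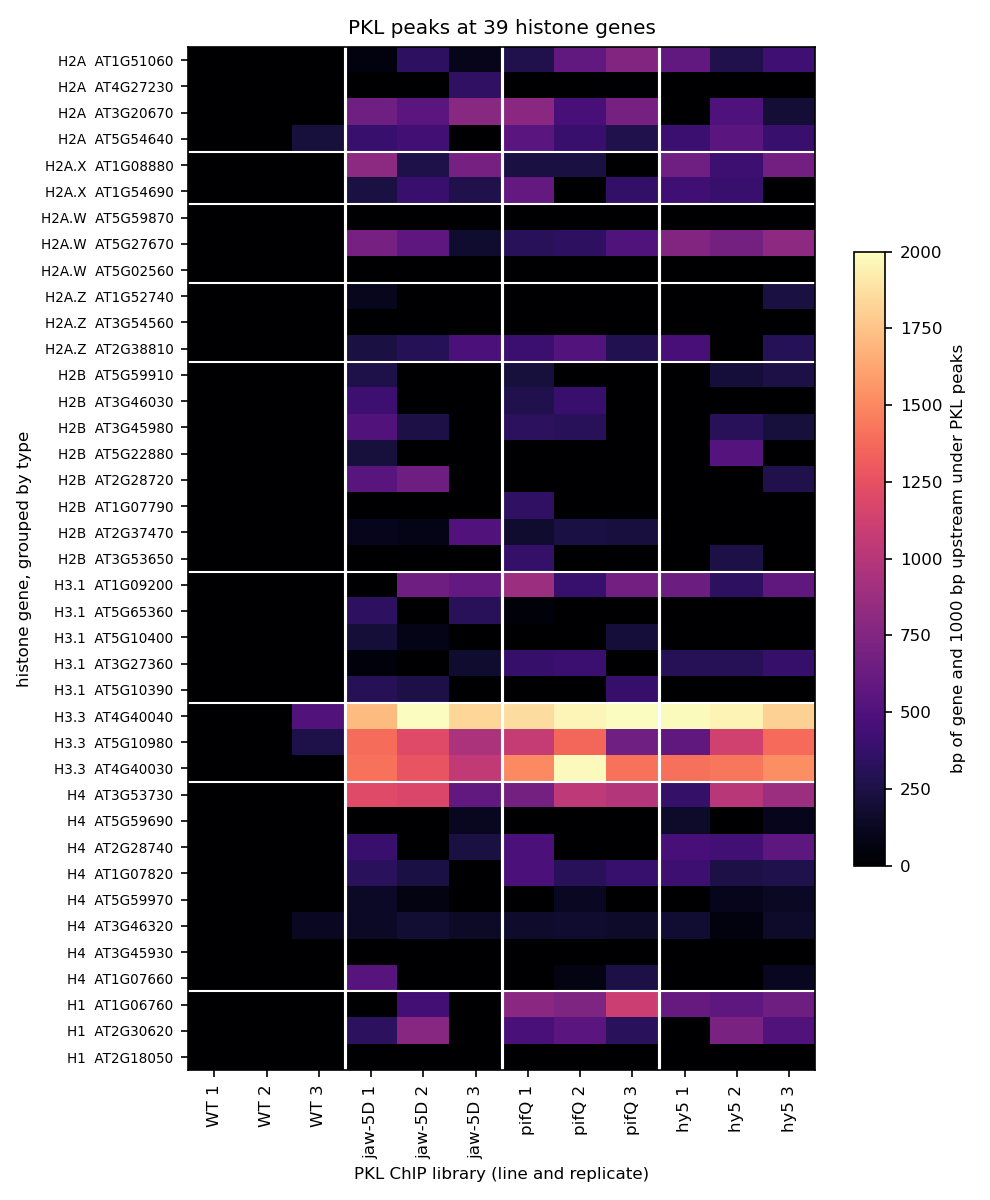
Length of each histone gene and its 1000 bp upstream under PKL peaks, in bp, with genes in rows grouped by type and the 12 libraries of WT, jaw-5D, pifQ and hy5 in columns. The 3 H3.3 genes have the longest mean cover in the mutants, with 579 to 1996 bp in single libraries, and in WT cover was found in replicate 3 only.

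The H3.3 genes had the longest mean PKL cover of all members in bp. They are 1062 to 1557 bp long, against a median of 771 bp for members, and the part of length was not tested. AT4G40040 had 1718, 1994 and 1829 bp in jaw-5D, 1864, 1963 and 1996 bp in pifQ and 1989, 1959 and 1809 bp in hy5. Its mean over the 9 mutant libraries, 1902 bp, ranked 192 among nuclear genes. AT4G40030 had 1410, 1271 and 1056 bp in jaw-5D, 1513, 1983 and 1411 bp in pifQ and 1403, 1432 and 1529 bp in hy5, and was listed at 0 bp in WT. The 2 genes are not independent, since 1 peak ran over both in 9 of the 9 mutant libraries, and the upstream window of AT4G40030 lies mostly in AT4G40040.

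AT5G10980, which lies on chromosome 5 (3472405 to 3473466, minus strand) with 3372 bp to the next gene upstream, had 1384, 1206 and 950 bp in jaw-5D, 1078, 1364 and 658 bp in pifQ and 579, 1132 and 1378 bp in hy5. The authors' fold enrichment of the main peak at the 3 genes had means of 3.12 to 3.80 in the mutants, against medians of 2.57 to 2.64 over all mutant peaks. Over all 39 members, Spearman's rho of FPKM in pkl with mean PKL bp in the mutants was 0.46, as a description of genes of different lengths.

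Next in length came the H4 gene AT3G53730, the most expressed of its type, with 1207, 1176 and 593 bp in jaw-5D, 685, 1036 and 989 bp in pifQ and 371, 1011 and 879 bp in hy5. HTA7, an H2A.W gene, had 692, 568 and 173 bp, 319, 343 and 506 bp, and 751, 683 and 806 bp in the same lines. HTA10 had a peak in all 9 mutant libraries as well, between 55 and 750 bp. The H4 gene AT3G46320 had 57 to 191 bp in every mutant library, all at the far end of the gene from its start, where a peak whose summit lay a mean of 839 to 870 bp after the start ran out of the gene.

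The 8 H2B genes had short cover. Of them, none was bound over at least 50 bp in more than 6 of the 9 mutant libraries, and their means ran from 38.9 to 217 bp. The H2A.W genes HTA6 and HTA12, the H2A.Z gene HTA11, the H4 gene AT3G45930 and HIS1-3 were listed at 0 bp in all 12 libraries. Of the 4 members with H3K4me2 alone in WT, HTA11 and HIS1-3 had no called PKL peak, while HTA8 (AT2G38810) was bound in 8 of the 9 mutant libraries with a mean of 331 bp, and AT5G10390 in 3 of them with 310, 254 and 381 bp. The 3 peaks counted for AT5G10390 covered 0 bp of the gene itself and reached into its upstream neighbour AT5G10400.

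Against WT, PKL cover was longer at 7 of 28 members tested in jaw-5D, 8 in pifQ and 8 in hy5 (limma, centred on the library median). Over all 11782 genes tested, 35.2%, 33.2% and 32.8% passed in that direction. The members' counts were near that background and were not tested against it. Shorter calls were made at 1.43%, 1.52% and 1.96% of genes and at 0, 1 and 0 members. The 1 shorter call was the H4 gene AT5G59690 in pifQ (adjusted p = 0.0334), which was listed at 0 bp in all 6 libraries of that comparison, so that the centring alone sets its value. The 3 comparisons share their WT libraries. With only the 2 lines of each comparison fitted, 9 of 13, 12 of 15 and 12 of 14 members were called longer. Over all genes tested in those fits the counts were 5762 of 7790, 5506 of 7840 and 4871 of 6919. No member was bound in more than 1 WT library, so each needed mutant libraries to be tested there. These high shares therefore follow largely from the filter and by themselves support nothing. Leaving out 1 WT library gave 4 or 5 calls in jaw-5D and hy5 and 4 to 6 in pifQ.

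The longer calls fell on 9 members, of which 5 were called in each of the 3 mutants. They were the H3.3 genes, the H4 gene AT3G53730 and the H2A.W gene HTA7. For AT4G40040 the difference was 2.26 (SE 0.484, adjusted p = 0.00376) in jaw-5D, 2.25 (0.00404) in pifQ and 2.35 (0.00325) in hy5 on the log2 scale of bp plus 100, in limma. For AT5G10980 the adjusted p was 0.00722, 0.0181 and 0.0136 in the same order. Of the 9 members, 7 were listed at 0 bp in WT, among them AT4G40030, AT3G53730 and HTA7 (AT5G27670). They passed the filter of 3 bound libraries only through mutants, and their fitted values depend on the added 100 bp. AT4G40040 and AT5G10980 had a peak in WT replicate 3 alone, so they too needed mutant libraries to pass. Their fitted values also depend on the added 100 bp. With every gene bound in at least 1 library tested, HTA7 in pifQ (adjusted p = 0.0529) and HTA10 (AT1G51060) in hy5 (0.0533) lost their calls, and the other longer calls of the 9 members did not. The 7 members at 0 bp in WT met that filter too only through mutants.

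The other 4 calls were on canonical H2A, H2A.X and H1 genes. HTA13 (AT3G20670) was called in jaw-5D and pifQ, with 658, 547 and 789 bp and 795, 454 and 689 bp. H2AXA was called in jaw-5D and hy5, with 801, 265 and 689 bp and 662, 414 and 672 bp. HTA10 (AT1G51060) was called in pifQ and hy5, with 274, 591 and 750 bp and 592, 279 and 423 bp. Its log2 difference turned to -0.47 in pifQ and -0.086 in hy5 with peaks of a -log10 q of at least 10, and to -0.47 in hy5 in a window of 1000 bp upstream and 200 bp downstream of the start. AT1G06760 was called in pifQ and hy5 as well, and its difference in pifQ turned to -0.21 in that window. Both HTA10 and AT1G06760 were listed at 0 bp in all WT libraries, so the centring alone sets these negative signs. With peaks limited to a -log10 q of at least 10, 6 members could be tested, and the calls in each mutant were the 3 H3.3 genes. Over all 4692 genes tested at that limit, 1487, 1290 and 1169 were called longer in jaw-5D, pifQ and hy5. The main WT peaks at AT4G40040 and AT5G10980, with a -log10 q of 3.61 and 4.79, fell below the limit.

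Between the mutants, limma called 0 of the 28 members in each pair, where 2.16% of genes passed for pifQ against jaw-5D, 2.22% for hy5 against jaw-5D and 1.05% for hy5 against pifQ. At an unadjusted p under 0.05 there were 4, 5 and 6 members, against 12.7%, 13.7% and 10.3% of genes. AT1G06760 was nearest to a call, with 0, 439 and 0 bp in jaw-5D, 794, 731 and 1095 bp in pifQ and 610, 565 and 653 bp in hy5. For pifQ against jaw-5D its adjusted p was 0.0501 at a log2 difference of 2.38 (SE 0.541), and the groups did not overlap.

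Of the members, 24 have another gene within 1000 bp upstream and 6 overlap another gene, so a peak in the window may belong to a neighbour. There are 8 pairs of members within 20000 bp of each other. The H3.1 genes AT5G10390 and AT5G10400, 738 bp apart on the same strand, both carried H3K4me2 over nearly the whole gene in WT. They differed in H3K4me3, with 585, 559 and 463 bp at AT5G10400 in WT and 604, 580 and 637 bp in pkl.

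Genes that act on histones or in S phase were read from lists for comparison. In a list of 17 histone chaperone and SWR1 genes, H3K4me1 was found in all 3 WT libraries at 16, H3K4me2 and H3K4me3 at 17, and their expression in pkl ran from 4.41 to 99.2 FPKM. limma called 0 of the 17 in pkl against WT for each of the 3 marks. Over all genes tested, 0.697% were called for H3K4me1 and 1.58% for H3K4me2. For H3K4me3, 1.14% were called longer and 0.387% shorter, so 0 of 17 is near the background. PKL cover was longer than in WT at 3 of the 7 tested in each mutant, namely FAS2 (AT5G64630), a subunit of the CAF-1 chaperone that places H3.1, NRP1 (AT1G74560), an H2A and H2B chaperone, and ARP6 (AT3G33520), a subunit of SWR1. Among all genes tested 35.2%, 33.2% and 32.8% were called longer in jaw-5D, pifQ and hy5, so 3 of 7 is near the background.

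Of 15 genes of DNA replication and S phase, 11 carried H3K4me1 and 15 carried H3K4me2 in all 3 WT libraries, with a median of 12.7 FPKM in pkl. H3K4me3 was found in all 3 libraries at 11 of them in WT and at 15 in pkl. MCM2 (530, 340 and 0 bp in WT), MCM5 (287, 398 and 0 bp) and MCM6 (283, 0 and 0 bp) had it in all pkl libraries, without a call. Over all genes tested for H3K4me3, 1.14% were called longer in pkl. MCM3 (AT5G46280), a subunit of the replicative helicase, was the 1 gene of the list called for H3K4me3, with 0, 0 and 0 bp in WT and 417, 350 and 326 bp in pkl (adjusted p = 0.000134, limma). It too passed the filter only through pkl. With the filter of at least 1 marked library, which it also met through pkl alone, its adjusted p in limma was 0.000183. PKL cover was longer in each mutant at 4 of the 6 tested, against the same background of 35.2%, 33.2% and 32.8% of genes. TSO2 (AT3G27060), which codes for a subunit of ribonucleotide reductase, had 883 to 1498 bp in the mutants. MCM7 (AT4G02060), CDC6 (AT2G29680) and E2FA (AT2G36010) were the others. Like 34 of the histone genes, TSO2, MCM5 (AT2G07690) and ORC1A (AT4G14700) had no H3K4me1 in any library.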

How the data were processed

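The members and gene lists were chosen with earlier results of these data known. Per the labels' protocols, poly(A) RNA was sequenced. Per the submitters' processing notes, the genome was TAIR10 and the tools named, without their roles, were MACS2 2.2.5, HISAT2 2.1.0, Bowtie2 2.3.3, deepTools, SAMtools 1.6 and fastp. The authors deposited raw counts per gene and FPKM values; the FPKM sum to 999954 to 999956 per library and equal TPM from the counts within 0.005%. The authors deposited 1 peak list per library, with a score, a fold enrichment and -log10 p and q values for each peak; ChIP depth is unknown. Strand use in counting is not given in the sources used here. In the 2 RNA tables, 6 columns (3 in each) matched no sample label and were not used. Hi-C and input samples (10 and 15) were not analysed here.

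From these, bp under peaks were summed per gene (marks) or per gene with 1000 bp upstream (PKL). Tests used limma 3.58.1 in R 4.3.3 on log2(bp + 100), two-sided, with Benjamini-Hochberg adjustment over all genes tested and a threshold of 0.05. A gene was tested when marked over at least 150 bp (PKL, 50 bp) in at least 3 libraries. H3K4me2 and PKL values were centred on each library's median over genes marked in every library. The 4 lines of the PKL data shared 1 fit. The members all counted as named genes, each described by histone type. Scripts were tested on simulated data. Gene symbols came from RefSeq (TAIR10.1), which matched 28932 of the nuclear genes. Alternatives changed the pseudocount, thresholds, window, centring, replicate block and libraries kept.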

Additional observations from a re-analysis of the deposited data

How the results depend on the processing

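For H3K4me3 in pkl against WT, the 2 members called became 1, losing AT5G10390, with a pseudocount of 200 bp, with marking from 300 bp and with a replicate block, and 0 with peaks limited to a -log10 q of at least 10. With 1 library left out the count ran from 0 to 2, since genes without WT peaks then fail the filter of 3 libraries when a pkl library is dropped; with a filter of 2 libraries, chosen after seeing the data, it ran from 1 to 3. For H3K4me2 it ran from 0 to 1 (AT3G46320, without WT replicate 1) and for H3K4me1 it was 0 throughout. Replicate numbers did not pair the samples (r of deviations -0.088 to 0.0813 over 27 pairs, with 6 of 27 correlating best with their own number), and the replicate block gave 7 members called in each PKL comparison with WT and 0 between mutants.

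For PKL against WT, the calls of jaw-5D, pifQ and hy5 (7, 9 and 8) became 3, 3 and 3 with a -log10 q of at least 10 and 15, 16 and 15 without centring. With a -log10 q of at least 2, pifQ and hy5 gave 5 and 5, and with a window of 1000 bp upstream and 200 bp downstream of the start they gave 3 and 5. Leaving out 1 library gave 4 to 7, 4 to 6 and 4 to 8, in that order. The counts that fell by over 1.5 times were 4 in jaw-5D without WT replicate 1 or 3, 4 in pifQ without WT replicate 1 or 2 and 5 without pifQ replicate 2 or 3, and in hy5 4 without WT replicate 1 or 2 and 5 without WT replicate 3 or hy5 replicate 1 or 3. For pifQ against jaw-5D, 0 became 1 with a pseudocount of 200 bp, a -log10 q of at least 2, binding from 1 or 150 bp, no centring, or the window around the start, and 0 to 1 without 1 library. For hy5 against jaw-5D it was 0 to 1 without 1 library. For hy5 against pifQ, 0 became 1 with only those lines fitted and stayed 0 without 1 library. Differences that reversed were those of AT1G51060 (HTA10) in hy5 (-0.086 with a -log10 q of at least 10 and -0.47 in the window around the start, log2), AT1G51060 in pifQ (-0.47 with a -log10 q of at least 10) and AT1G06760 in pifQ (-0.21 in the window around the start). Both genes were listed at 0 bp in all WT libraries, so the centring alone sets these negative signs. Over the alternatives, calls among all genes ran from 0 to 332 for H3K4me1 (94 as reported), 127 to 482 for H3K4me2 (302), 69 to 323 for H3K4me3 (256), 1593 to 7993 for jaw-5D (4320), 1371 to 8089 for pifQ (4085) and 1320 to 7267 for hy5 against WT (4099), and between mutants 166 to 305, 170 to 316 and 104 to 214 (254, 261 and 124). Class medians of FPKM stayed within 1 SD in 36 of 36 settings. Counts of marked or bound members stayed within 1.5 times in 37 of 44 settings; the others were 13 and 15 members with H3K4me2 in WT and pkl and 4 with PKL in each mutant at a -log10 q of at least 10, and 3 and 1 with H3K4me1 in genes with 500 bp on each side.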
